A study of Homo sapiens with 15 samples.

Results

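The ligands of the epidermal growth factor (EGF) family and the ERBB receptors were followed from pluripotent cells to passaged Müller glial cells (MGCs). Their 10 genes, of 19684 in the deposited tables, were matched by symbol: the ligands EREG, AREG, HBEGF, TGFA, BTC and NRG1, and the receptors EGFR, ERBB2, ERBB3 and ERBB4. They were picked with the difference between passage 5 and passage 1 in view, where EREG was known to have the largest fall, so that difference is described here without a test. The same passage 1 and passage 5 libraries enter the comparisons with organoids, so the p-values of members there are not independent of that choice. All 10 symbols stood for 1 gene each.

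The study asked how MGCs form in human retinal organoids (ROs) and how the induced cells (iMGCs) grown out of them compare. All RNA came from the BC1-GFP line of human induced pluripotent stem cells (hiPSCs), labelled WT and carrying a GFP reporter, so every group stands for a single line. The 5 groups of 3 libraries were undifferentiated hiPSCs kept in mTeSR1 medium, neural retina (NR) layers of ROs at 70 and at 150 days after induction (D70-ROs and D150-ROs, cultured with serum and supplements), and iMGCs on the 5th day of passage 1 or 5 (P1 and P5 iMGCs), which were dissociated NR cells of D150-ROs spread on Matrigel in serum medium. The sample descriptions give 3 independent experiments a group and the series description gives 2 for hiPSCs and ROs, so p-values for these may partly measure technical spread.

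Levels are given as FPKM, fragments scaled for transcript length and for mapped reads, and tests rest on expected counts, the estimated reads of a gene. A test with edgeR required 1 FPKM or more in 3 of the libraries it compared and used TMM factors, which scale libraries on the bulk of their genes. A gene was called at an adjusted p under 0.05 and a change of at least 2-fold. The libraries held between 11349600 and 20398755 expected counts, with a median of 17194154, and D70-RO replicate 2 was the shallowest. According to the series description, 2 companies did the sequencing and batches were corrected for in joint work, with no list of the libraries concerned. Groups and batches, if these coincide, cannot be told apart. Of 8 MGC markers, 8 reached 1 FPKM in every D150-RO library, 6 in every P1 library and 7 in every P5 library. As many as 6 also did so in every hiPSC library and 7 in every D70-RO library, so these counts do not set MGCs apart. RLBP1, which encodes the MGC retinaldehyde-binding protein CRALBP, was at 33.5 ± 3.66 FPKM (SD, n = 3) in D150-ROs, at 0 in all 3 P1 libraries and at 0.03 ± 0.05 in P5 iMGCs. GLUL, SOX9, SLC1A3 and NES also had lower means in both passages than in D150-ROs, with GLUL at 100.2 ± 2.37 FPKM in D150-ROs and 13.4 ± 1.18 in P1. VIM, CRYAB and APOE had higher means. VIM went from 1065 ± 76.0 in D150-ROs to 2160 ± 20.0 in P1 and 2858 ± 50.6 in P5, CRYAB from 10.9 ± 1.21 to 30.2 ± 2.45 and 134 ± 6.58, and APOE from 13.6 ± 1.91 to 37.2 ± 3.23 and 34.5 ± 1.06. The summed FPKM of 5 photoreceptor markers was 842–966.5 in D150-ROs and 0.12–0.35 in P1 iMGCs. That of 7 fibroblast and mesenchyme markers went the other way, from 23.4–28.3 to 2267–2372 in P1 and 2570–2829 in P5 iMGCs. In hiPSCs it was 315.8–376.2. COL1A1 made up most of the sum in P1, where it went from 2.77 ± 0.09 in D150-ROs to 2000 ± 53.5 FPKM. PRRX1 did not rise in P1, at 0.09 ± 0.09 in D150-ROs and 0.01 ± 0.02 there, and the other markers of the list had higher means. The part of these shifts in the differences between iMGCs and D150-ROs was not tested, and in bulk RNA fewer cells of a type cannot be told apart from less RNA per cell.

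EGF family ligands are made as membrane-bound precursors, and metalloproteases of the ADAM family cut them free. EGF, TGFA, AREG and EPGN bind EGFR, HBEGF, BTC and EREG bind EGFR and ERBB4, and the neuregulins bind ERBB3 and ERBB4. ERBB2 has no known ligand and acts as the preferred partner of the other receptors, while ERBB3 has little kinase activity of its own. The bound pairs signal through RAS, the MAP kinases and PI3 kinase. In the retina, HBEGF and EGFR are known for their part in the division of MGCs after injury.

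EREG and AREG are neighbours on chromosome 4, with starts 80 kb apart, and EPGN, EREG, AREG and BTC lie within 486 kb. The 250 bases before the RefSeq start (GRCh38.p14) of EREG, AREG and HBEGF are shown because 2 neighbouring genes and the most abundant ligand of P1 iMGCs had unlike levels in the same libraries. Capitals mark matches to 4 motifs searched on both strands: a TATA box (TATAAA), an AP-1 site (TGANTCA), a cyclic AMP response element (CRE, TGACGTCA) and a TEAD site (CATTCC). The windows are EREG at chr4:74364895-74365144 (+), AREG at chr4:74444886-74445135 (+) and HBEGF at chr5:140346604-140346853 (−).
EREG: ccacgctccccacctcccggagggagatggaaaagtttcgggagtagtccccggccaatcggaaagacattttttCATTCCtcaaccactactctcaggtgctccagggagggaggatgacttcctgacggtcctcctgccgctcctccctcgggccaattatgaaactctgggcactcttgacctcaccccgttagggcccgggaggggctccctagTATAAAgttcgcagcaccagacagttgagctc
AREG: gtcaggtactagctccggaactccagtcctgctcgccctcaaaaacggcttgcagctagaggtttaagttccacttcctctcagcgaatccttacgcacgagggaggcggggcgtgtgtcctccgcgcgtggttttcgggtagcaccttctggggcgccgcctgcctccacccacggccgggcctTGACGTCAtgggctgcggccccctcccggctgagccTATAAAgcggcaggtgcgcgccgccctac
HBEGF: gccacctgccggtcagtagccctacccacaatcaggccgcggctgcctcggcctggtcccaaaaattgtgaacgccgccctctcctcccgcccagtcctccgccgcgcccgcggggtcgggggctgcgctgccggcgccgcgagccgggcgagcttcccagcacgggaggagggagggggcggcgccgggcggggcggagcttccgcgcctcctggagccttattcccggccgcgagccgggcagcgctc

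The EREG window held a TATA box that began 32 bases before the start and a TEAD match at 175 bases. The AREG window also held a TATA box, at 29 bases, and a CRE at 65 bases. None of the 4 letter patterns was in the HBEGF window. Of 34943 promoter windows of this length, 10.8% held the TATA letters, 6.59% the AP-1 letters, 1.63% the CRE letters and 11.9% the TEAD letters. These matches are descriptions of the letters and were not measured as binding. Of the 10 members, 8 had an entry in the promoter table.

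EREG, which encodes epiregulin, was found at appreciable levels in P1 iMGCs and in no other group. Its FPKM was 0 in all 3 hiPSC libraries, while the D70-ROs had 0.01, 0 and 0 and the D150-ROs 0.01, 0.01 and 0.03. In P1 iMGCs it was 2.33, 2.11 and 1.83, and in P5 iMGCs 0.06, 0.04 and 0.03. Every P1 library stood above every library of the other 4 groups, where neighbours in the order of levels overlapped. The expected counts behind these values added up to 0 in hiPSCs, 1 in D70-ROs, 4 in D150-ROs, 482 in P1 iMGCs and 10 in P5 iMGCs. By library totals, the log2 ratio of P1 iMGCs to D150-ROs had a 95% counting interval from 5.49 to 8.74, and with TMM factors the log2 fold change was 7.35 (SE 0.30). From P1 to P5 the log2 difference was −5.48 (SE 0.27), a level 44.6-fold lower. No p is given for EREG in iMGCs, because its P1 libraries entered its choice. The counting interval describes the counts and is not a test.

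AREG encodes amphiregulin, the ligand next to EREG on chromosome 4. It did not share the P1 level of its neighbour. Its counts added up to 1 in hiPSCs, 9 in D70-ROs, 1 in D150-ROs, 3 in P1 iMGCs and 3 in P5 iMGCs. The highest library was D70-RO replicate 1 at 0.33 FPKM, and no other library passed 0.07 FPKM. Further along the cluster, EPGN had at most 0.41 FPKM in any library and BTC at most 1.02 FPKM. Differences of AREG between groups were not detectable at this depth.

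HBEGF encodes heparin-binding EGF-like growth factor and was the most abundant ligand in iMGCs of P1. Its FPKM was 1.10, 1.35 and 0.92 in hiPSCs, against 0.70, 0.96 and 0.70 in D70-ROs and then 3.93, 5.41 and 5.44 in D150-ROs. The P1 iMGCs had 69.95, 71.80 and 70.03, and the P5 iMGCs 37.53, 34.71 and 37.71. The 3 highest groups did not overlap, and hiPSCs and D70-ROs did. HBEGF rose between D70-ROs and D150-ROs by 2.45 on the log2 scale (SE 0.23, adjusted p = 1.78e-05, edgeR's quasi-likelihood test). It passed the FPKM limit through the D150-ROs alone, and without that limit the value was 2.44 (SE 0.23, adjusted p = 5.67e-06, edgeR). It was higher in P1 iMGCs than in D150-ROs by 4.48 (SE 0.08, adjusted p = 8.99e-17, edgeR), a 22.3-fold change with TMM factors beside a ratio of mean FPKM of 14.3. In P5 iMGCs the log2 fold change over D150-ROs was 3.59 (SE 0.09, adjusted p = 1.53e-15, edgeR). The P5 level lay 0.89 below the P1 level on the log2 scale (SE 0.04), with no overlap of the libraries.

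TGFA encodes transforming growth factor alpha. It stayed low until the late passage. Its FPKM lay between 0.44 and 1.38 in the 12 libraries of hiPSCs, ROs and P1 iMGCs, where all 4 groups overlapped their neighbours in the order of levels. In P5 iMGCs it was 4.69, 3.12 and 3.94, above every other library. TGFA was higher in P5 iMGCs than in D150-ROs by 3.20 on the log2 scale (SE 0.19, adjusted p = 1.01e-10, edgeR). Only the P5 libraries brought it past the FPKM limit, without which the value was 3.22 (SE 0.18, adjusted p = 1.91e-15, edgeR). The P5 libraries were in view when the members were chosen, so neither p is independent support. Between P1 and P5 the log2 difference was 1.99 (SE 0.16), opposite in sign to those of EREG and HBEGF.

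BTC, which encodes betacellulin, was highest in D150-ROs. Its FPKM there was 0.92, 0.87 and 1.02, against 0.05, 0 and 0.02 in hiPSCs and, at day 70, 0.09, 0.03 and 0.06. In P1 iMGCs it was 0.46, 0.31 and 0.16, and in P5 iMGCs 0.20, 0.23 and 0.41. D150-ROs stood apart from all other groups, while P1 and P5 iMGCs overlapped. BTC did not reach the limit of 1 FPKM in 3 libraries that the test required. Without that limit its rise from D70-ROs to D150-ROs was 3.55 on the log2 scale (SE 0.44, adjusted p = 4.52e-05, edgeR), beside 30.7% of all genes called, and it was lower in P1 iMGCs than in D150-ROs by −1.44 (SE 0.35, adjusted p = 7.91e-04, edgeR).

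NRG1 encodes neuregulin 1, the member that binds ERBB3 and ERBB4 but not EGFR. Its mean was lowest in hiPSCs, followed by both RO stages, which overlapped, then by P1 and last by P5 iMGCs. Its FPKM was 0.73, 1.16 and 1.31 in hiPSCs, followed by 5.55, 3.91 and 7.87 for D70-ROs and 7.03, 8.04 and 8.04 for D150-ROs. It reached 24.09, 23.73 and 26.12 in P1 and 49.44, 45.80 and 48.91 in P5 iMGCs. NRG1 rose between hiPSCs and D70-ROs by 3.02 on the log2 scale (SE 0.26, adjusted p = 1.18e-06, edgeR), and by 3.01 without the FPKM limit (adjusted p = 1.02e-07, edgeR), which it passed through the D70-ROs alone. Between D70-ROs and D150-ROs the log2 fold change of 0.35 (SE 0.20, adjusted p = 0.133, edgeR) did not pass. NRG1 was higher in P1 iMGCs than in D150-ROs by 2.07 (SE 0.07, adjusted p = 1.24e-13, edgeR) and in P5 iMGCs by 3.11 (SE 0.06, adjusted p = 6.81e-17, edgeR). From P1 to P5 the log2 difference was 1.04 (SE 0.05).

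**Figure D1:**
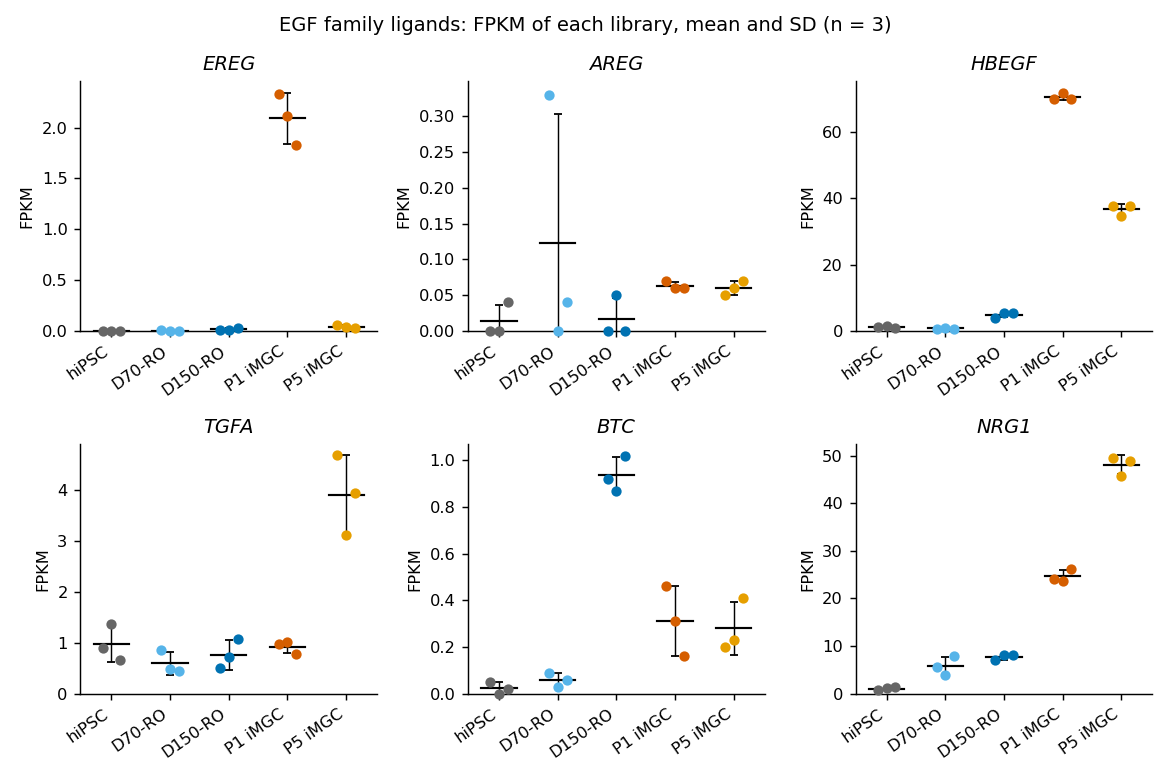
Level of the 6 ligands in FPKM (vertical axis, linear and starting at 0, a scale of its own in each panel) in the 5 groups (horizontal axis). Points are libraries, horizontal lines are group means and bars are SDs (n = 3, drawn only above 0). EREG stands at 1.83 to 2.33 FPKM in P1 iMGCs and at 0.06 or less elsewhere, HBEGF at 69.95 to 71.80 in P1 and 34.71 to 37.71 in P5 iMGCs, and NRG1 at 45.80 to 49.44 in P5 iMGCs.

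EGFR, the receptor for most ligands of the family, was higher in every RO and iMGC library than in hiPSCs. Its FPKM was 1.11, 1.39 and 0.96 in hiPSCs, while the D70-ROs had 8.97, 11 and 12.61 and the D150-ROs 6.23, 6.14 and 6.88. Libraries of P1 iMGCs had 22.76, 22.92 and 22.96, and those of P5 iMGCs 18.69, 19.14 and 19.57. No neighbouring groups in this order overlapped. EGFR rose between hiPSCs and D70-ROs by 3.74 on the log2 scale (SE 0.17, adjusted p = 9.55e-09, edgeR), and by 3.73 without the FPKM limit (adjusted p = 1.14e-10, edgeR), which it passed through the D70-ROs alone. From D70-ROs to D150-ROs its log2 fold change was −0.98 (SE 0.13, adjusted p = 1.49e-04, edgeR), which is just short of the 2-fold limit. That limit was passed without D70-RO replicate 1 (−1.12), without D150-RO replicate 3 (−1.03) and with upper-quartile scaling (−1.08). EGFR was higher in P1 iMGCs than in D150-ROs by 2.47 (SE 0.05, adjusted p = 4.23e-16, edgeR) and in P5 iMGCs by 2.26 (SE 0.05, adjusted p = 9.48e-16, edgeR). P5 iMGCs lay 0.20 below P1 iMGCs on the log2 scale (SE 0.04).

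ERBB2 encodes the receptor without a ligand and was by far the most abundant receptor in hiPSCs. Its FPKM was 135.64, 172.60 and 134.85 in hiPSCs, against 23.79, 30.88 and 32.27 in D70-ROs and then 27.38, 25.68 and 25.51 in D150-ROs. In P1 iMGCs it was 20.37, 18.88 and 19.45, and in P5 iMGCs 19.61, 19.74 and 20.59. The hiPSC libraries stood above all others, both RO stages overlapped, and P1 and P5 iMGCs overlapped. ERBB2 fell between hiPSCs and D70-ROs by 2.43 on the log2 scale (SE 0.18, adjusted p = 3.20e-07, edgeR). From D70-ROs to D150-ROs its log2 fold change was −0.59 (SE 0.13, adjusted p = 0.00271, edgeR), under the 2-fold limit. The size depended on the scale, at −0.36 with library totals and −0.13 for log2(FPKM + 1). Its direction between D150-ROs and P1 iMGCs depended on the scale: the log2 fold change was 0.56 (SE 0.05) with TMM factors, −0.09 with library totals and −0.40 for log2(FPKM + 1), all under 2-fold. In P5 iMGCs the same 3 values were 0.66, −0.04 and −0.37.

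ERBB3, which pairs with ERBB2 to bind neuregulins, was a receptor of the hiPSCs in these libraries. Its FPKM was 20.69, 22.87 and 18.72 in hiPSCs, followed by 0.21, 0.35 and 0.33 for D70-ROs and 0.47, 0.36 and 1.09 for D150-ROs. In P1 iMGCs it was 0.04, 0.15 and 0.05, and in P5 iMGCs 0.28, 0.02 and 0.05. The hiPSC counts added up to 4981, and those of P1 and P5 iMGCs to 10 each. ERBB3 fell between hiPSCs and D70-ROs by 7.15 on the log2 scale (SE 0.22, adjusted p = 7.83e-10, edgeR). It was tested there because of the hiPSCs alone, and without the FPKM limit the log2 fold change was −7.16 (SE 0.23, adjusted p = 3.97e-12, edgeR). The summed FPKM of 4 epithelial markers moved with it, from 798.7–833.5 in hiPSCs to 34.0–49.6 in D70-ROs and 6.34–8.76 in D150-ROs, but was 245–262.9 in P1 iMGCs, where CDH1 was under 0.1 FPKM. Their part in the change was not tested. ERBB3 was too low to be tested between iMGCs and D150-ROs. Without the FPKM limit it was lower in P1 iMGCs by −2.16 (SE 0.60, adjusted p = 0.00229, edgeR) and in P5 iMGCs by −2.10 (SE 0.63, adjusted p = 0.0039, edgeR).

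ERBB4, the receptor that binds both neuregulins and HBEGF, was measured mainly in the RO groups. The D70-ROs had 0.46, 0.27 and 0.57 FPKM, and the D150-ROs 1.21, 0.97 and 0.61 FPKM. It was at most 0.10 in hiPSCs, at most 0.03 in P1 iMGCs and at most 0.08 in P5 iMGCs. The counts added up to 9 in hiPSCs, 244 in D70-ROs, 417 in D150-ROs, 5 in P1 iMGCs and 13 in P5 iMGCs. Without the FPKM limit, ERBB4 was lower in P1 iMGCs than in D150-ROs by −5.71 (SE 0.43, adjusted p = 1.57e-11, edgeR). It was higher in D70-ROs than in hiPSCs by 4.78 (SE 0.53, adjusted p = 1.75e-06, edgeR), beside 41.7% of all genes called.

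**Figure D2:**
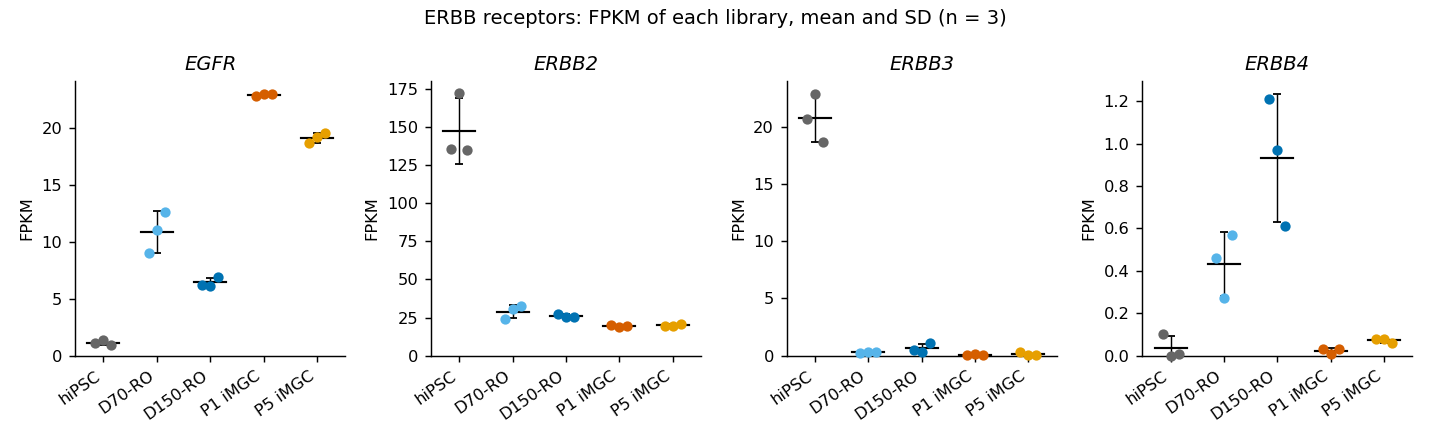
Level of the 4 receptors in FPKM (vertical axis, linear and starting at 0, a scale of its own in each panel) in the 5 groups (horizontal axis). Points are libraries, horizontal lines are group means and bars are SDs (n = 3, drawn only above 0). ERBB2 and ERBB3 are highest in hiPSCs, EGFR is highest in P1 iMGCs at 22.76 to 22.96 FPKM, and ERBB4 is highest in D150-ROs at 0.61 to 1.21 FPKM.

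Because FPKM is scaled for length, the 4 receptors can be set beside each other within a library. ERBB2 made up 87.0% of their summed FPKM in hiPSCs, ERBB3 12.3% and EGFR 0.677%, as means of 3 libraries. In D70-ROs the share of EGFR was 26.8% and that of ERBB2 71.4%. D150-ROs had 18.8% EGFR, 76.6% ERBB2 and 2.71% ERBB4. In P1 iMGCs EGFR reached 53.8%, between 52.7% and 54.6% in single libraries, and stood above ERBB2 at 46.0%. In P5 iMGCs the order was reversed, with 48.7% EGFR and 50.8% ERBB2. ERBB3 and ERBB4 together held the remainder, with means of 0.189% and 0.0546% in P1 and of 0.300% and 0.187% in P5 iMGCs. The sum of the 4 receptors was 169.6 FPKM in hiPSCs and between 34.2 and 42.55 FPKM in the other groups. These are shares of RNA and not of receptor protein.

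**Figure D3:**
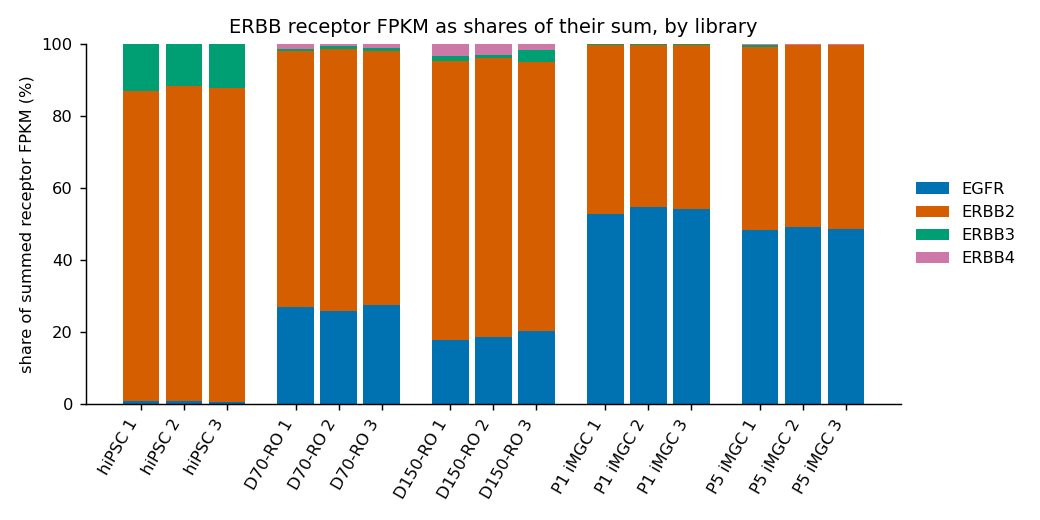
Share of EGFR, ERBB2, ERBB3 and ERBB4 in their summed FPKM (vertical axis, percent) for each of the 15 libraries (horizontal axis, grouped by stage or passage). Mean EGFR shares run from 0.677% in hiPSCs over 26.8% in D70-ROs and 18.8% in D150-ROs to 53.8% in P1 and 48.7% in P5 iMGCs.

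The ligands shifted in makeup as well. The FPKM of the EGFR ligands (EREG, AREG, HBEGF, TGFA, BTC, EGF and EPGN) summed to 2.58 in hiPSCs, 2.45 in D70-ROs, 10.3 in D150-ROs, 76.6 in P1 and 42.4 in P5 iMGCs. That of the neuregulins (NRG1, NRG2, NRG3 and NRG4) summed to 2.34, 7.55, 12.4, 25.0 and 48.4 in the same order. HBEGF made up 69.5% of all 11 ligands in P1 iMGCs and 40.4% in P5 iMGCs, whereas NRG1 made up 24.3% and 52.9%. The ratio of NRG1 to HBEGF was 0.331–0.373 in P1 and 1.30–1.32 in P5 libraries. In those P5 libraries, where the neuregulin sum was highest, the neuregulin receptors ERBB3 and ERBB4 were at 0.28 FPKM or less.

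The FPKM and the counts did not describe all members alike. The transcript length that a library implies, its count divided by its FPKM and by its total count, was 2.39 kb for HBEGF in hiPSCs, D150-ROs, P1 and P5 iMGCs. For EGFR it was 6.21 ± 0.88 kb (SD, n = 3) in hiPSCs and 9.48 to 9.56 kb on average in the other groups. For ERBB2 it was 3.24 ± 0.15 kb in D150-ROs, 4.08 ± 0.10 kb in P1 and 4.13 ± 0.09 kb in P5 iMGCs, with no overlap between D150-ROs and iMGCs. NRG1 had 1.69 ± 0.48 kb in hiPSCs and 2.50 to 2.98 kb elsewhere. The median over 10197 genes stayed between 2.76 and 2.86 kb in all 5 groups. Which isoforms these lengths stand for was not tested.

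Counted over the members between hiPSCs and D70-ROs, 4 of the 10 could be tested, of which 2 were higher (NRG1, EGFR) and 2 lower (ERBB2, ERBB3), beside 43.5% of all genes tested that were called. Between D70-ROs and D150-ROs, 1 of 4 was called (HBEGF, higher), beside 33.3% of all genes. Between hiPSCs and D150-ROs, 3 of 5 were higher (HBEGF, NRG1, EGFR) and 2 lower (ERBB2, ERBB3), beside 58.8%. Here EGFR rose by 2.76 on the log2 scale (SE 0.12, adjusted p = 3.90e-10, edgeR) and NRG1 by 3.37 (SE 0.15, adjusted p = 8.04e-10, edgeR). HBEGF rose by 1.77 (SE 0.20, adjusted p = 3.79e-06, edgeR), whereas ERBB2 fell by 3.02 (SE 0.13, adjusted p = 5.44e-10, edgeR) and ERBB3 fell by 6.23 (SE 0.24, adjusted p = 2.15e-10, edgeR). Without the FPKM limit, where 54.4% of all genes were called, EGFR had 2.76 (adjusted p = 1.46e-12), NRG1 3.38 (adjusted p = 4.32e-12), HBEGF 1.77 (adjusted p = 3.26e-07) and ERBB3 −6.23 (adjusted p = 1.05e-13, edgeR for each).

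Between D150-ROs and P1 iMGCs, 4 of 5 tested members were higher in P1 (EREG, HBEGF, NRG1, EGFR), beside 44.1% of all genes called in either direction and 20% called higher. EREG is in this count and in that without the limit below, although its P1 libraries entered its choice, so its call is no support. Between D150-ROs and P5 iMGCs, 4 of 5 were higher (HBEGF, TGFA, NRG1, EGFR), beside 44.6% and 20.8%. Several members passed the FPKM limit only through the group in which they were high, so none of these counts is evidence of a direction. They were EREG in P1, TGFA in P5, HBEGF in D150-ROs beside either earlier stage, NRG1 and EGFR in both RO stages beside hiPSCs, and ERBB3 in hiPSCs beside both. Without the limit all 10 members were tested against D150-ROs. Then 5 were higher and 3 lower in P1 (BTC, ERBB3, ERBB4), beside 42.4% of all genes called, and 4 were higher and 3 lower in P5, beside 42.7%. TGFA, the added call in P1, had a log2 fold change of 1.23 (adjusted p = 4.74e-05, edgeR) there, although its FPKM in P1 iMGCs and D150-ROs overlapped.

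**Figure D4:**
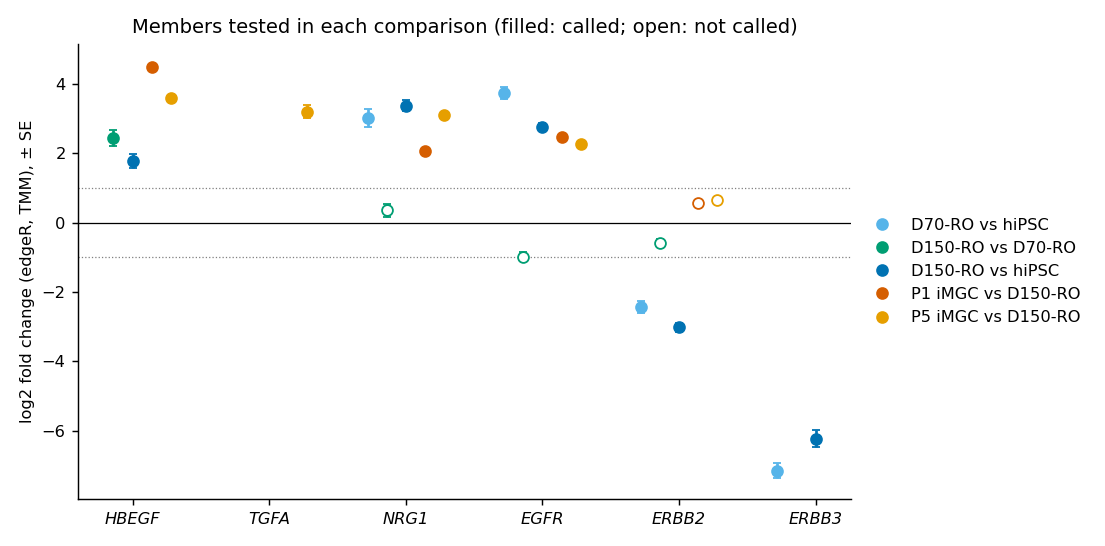
Log2 fold change of 6 members with SE (vertical axis, edgeR with TMM factors) in the 5 comparisons tested (colours), one column for each gene, with dotted lines at 2-fold. Filled points were called and open points were not. EGFR is at 3.74 in D70-ROs against hiPSCs, HBEGF at 4.48 in P1 iMGCs against D150-ROs, and ERBB3 at −7.15 and −6.23 in D70-ROs and D150-ROs against hiPSCs.

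The FPKM ranges of the groups were apart for 5 of the 10 members between hiPSCs and D70-ROs, beside 75.5% of all genes tested, and for 5 between D70-ROs and D150-ROs, beside 77.2%. They were apart for 8 between hiPSCs and D150-ROs, beside 87.4%, for 9 between D150-ROs and P1 iMGCs, beside 87.9%, and for 8 between D150-ROs and P5 iMGCs, beside 88.5%. The 10 members include those below the FPKM limit and the shares do not, so the 2 are unlike sets. Every member that could be tested was apart, except NRG1 and ERBB2 between D70-ROs and D150-ROs. AREG is among the 9 in P1 iMGCs on 3 counts against 1. 

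In all, 2581 genes were higher and 3105 lower in P1 iMGCs than in D150-ROs with TMM factors, and 1507 higher and 5173 lower with library totals, a shift of the median gene by −0.64 on the log2 scale. For P5 iMGCs the numbers were 2687 and 3087 with TMM factors, and 1543 and 5465 with library totals, a shift of −0.70. HBEGF, NRG1 and EGFR were called higher on either scale. Their log2 fold changes with library totals were 3.83, 1.42 and 1.82 in P1 and 2.89, 2.41 and 1.56 in P5 iMGCs. For D150-ROs the split moved from 3977 higher and 3865 lower to 4867 and 3047 against hiPSCs, and from 2131 and 2145 to 2781 and 1573 against D70-ROs, without a change in the members called.

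Between P1 and P5 iMGCs, the libraries of 6 of the 10 members did not overlap, beside 39.5% of the genes that passed the FPKM limit. EREG, HBEGF and EGFR were lower in P5, and TGFA, NRG1 and ERBB4 were higher. ERBB4, on 5 and 13 counts, did not itself pass that limit. Of the genes that passed it, 2.92% were called in this comparison. The members were chosen from it, and nothing is read from these counts.

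The other 5 ligands of the family were mostly low. EGF was at 0.44 ± 0.06 FPKM in hiPSCs, 0.88 ± 0.24 in D70-ROs, 3.37 ± 0.14 in D150-ROs, 2.46 ± 0.16 in P1 and 1.25 ± 0.19 in P5 iMGCs (SD, n = 3). NRG3, a neuregulin known from the nervous system, was at 3.64 ± 0.62 FPKM in D150-ROs and at 0.11 ± 0.08 and 0.02 ± 0.03 in P1 and P5 iMGCs. Both rose between D70-ROs and D150-ROs, EGF by 1.69 (SE 0.19, adjusted p = 5.85e-05, edgeR) and NRG3 by 1.46 on the log2 scale (SE 0.21, adjusted p = 2.38e-04, edgeR). EGF passed the FPKM limit there through the D150-ROs alone, and without it the value was 1.68 (adjusted p = 2.38e-05, edgeR). NRG3 was lower in P1 iMGCs than in D150-ROs by −4.44 (SE 0.32, adjusted p = 2.46e-09, edgeR), opposite to NRG1. It was tested because of the D150-ROs alone, and without the FPKM limit the value was again −4.44 (adjusted p = 5.49e-12, edgeR). EPGN, NRG2 and NRG4 stayed at or below 0.76 FPKM in every library.

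Of 8 genes for the shedding of ligands, 6 were higher in P1 iMGCs than in D150-ROs and none was lower, with a median log2 fold change of 1.70 beside −0.05 over all genes tested. This is 75% of the list, beside 44.1% of all genes called and 20% called higher. This list and those that follow were chosen with earlier results of these data known, so their shares are descriptions only. ADAM12, a protease known to release HBEGF, went from 1.96 ± 0.40 to 92.5 ± 4.48 FPKM (log2 fold change 6.00, SE 0.07). ADAM9 went from 26.4 ± 1.81 to 215 ± 6.83 FPKM (3.68, SE 0.06) and ADAM19 from 10.4 ± 0.57 to 53.9 ± 0.33 FPKM (3.01, SE 0.05). RHBDF2 and RHBDF1, the iRhoms that bring ADAM17 to the cell surface, went from 6.31 ± 1.27 to 13.6 ± 1.33 FPKM and from 5.11 ± 0.63 to 8.82 ± 0.16 FPKM. ADAM10 was called as well. ADAM17 itself was not called, at 16.9 ± 0.24 FPKM in D150-ROs and 17.3 ± 0.63 in P1 iMGCs, which overlapped. BACE1 went from 58.7 ± 2.84 to 26.9 ± 1.23 FPKM and was not called with TMM factors (−0.64, SE 0.04). With library totals 4 remained higher, RHBDF1 and ADAM10 were no longer called and 1 of the 8 was lower. The same 6 genes were higher in P5 iMGCs, with a median of 1.83, again 75% beside 44.6% of all genes. With library totals ADAM10 was no longer called there, 1 gene was lower and the median was 1.13. Between D70-ROs and D150-ROs, where HBEGF rose, 4 of 8 were higher (ADAM12, RHBDF2, ADAM9, ADAM19) and none lower, with a median of 0.75 and a share of 50% beside 33.3%. ADAM12 was at 0.46 ± 0.01 FPKM in D70-ROs and passed the FPKM limit through the D150-ROs alone. Other genes of the lists may have passed it through 1 group in the same way, so counts by direction are no evidence of a direction. Against hiPSCs, 2 were higher and 2 lower in D70-ROs (57.1% of those tested, beside 43.5%), and 4 higher and 2 lower in D150-ROs (75% beside 58.8%), or 5 and 2 with library totals.

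Of 11 genes listed for restraint of the receptors, 3 were higher and 2 lower in P1 iMGCs than in D150-ROs, with a median log2 fold change of 0.56 and a share of 45.5% called, near the 44.1% of all genes. LRIG3, of the LRIG family of membrane proteins, went from 1.70 ± 0.46 to 16.0 ± 0.93 FPKM (3.93, SE 0.08), while its relatives LRIG1 and LRIG2 had log2 fold changes of −1.03 and −1.07. LRIG3 was listed by its family, and its own effect on the receptors was not tested. ERRFI1, an inhibitor of the EGFR kinase, went from 31.1 ± 0.32 to 66.6 ± 1.08 FPKM (1.83, SE 0.05). The phosphatase gene PTPN1 had 1.48. With library totals PTPN1 was no longer called and the median was −0.09. In P5 iMGCs 4 were higher and 1 lower with TMM factors (45.5% beside 44.6%), and 1 higher and 2 lower with library totals. In hiPSCs LRIG1 was at 53.1 ± 5.81 FPKM and fell by 2.78 on the log2 scale to D70-ROs (SE 0.14), 1 of 2 genes of the list that were lower there, with none higher (18.2% beside 43.5%). Between D70-ROs and D150-ROs 1 was higher and 1 lower (18.2% beside 33.3%), and with library totals LRIG3 was no longer called. Between hiPSCs and D150-ROs 1 was higher and 2 lower (27.3% beside 58.8%), but 5 were higher and 2 lower with library totals.

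Of 21 genes that relay the signal, 2 were higher (SHC1, NRAS) and 3 lower (PIK3R1, GAB1, PIK3R3) in P1 iMGCs than in D150-ROs, a share of 23.8% called beside 44.1% of all genes. The median log2 fold change was 0.16, and −0.48 with library totals, where NRAS was no longer called and 1 gene was higher and 5 were lower. SHC1, the adaptor that links ERBB receptors to RAS, went from 44.7 ± 2.27 to 169 ± 13.1 FPKM (3.00, SE 0.05). PIK3R1, a regulatory subunit of PI3 kinase, went from 256 ± 5.92 to 11.4 ± 0.94 FPKM (−3.72, SE 0.05). In P5 iMGCs 1 was higher and 2 lower (14.3% beside 44.6%), with a median of 0.18, and with library totals 1 was higher and 5 lower, with a median of −0.52. Between hiPSCs and D70-ROs 5 were higher and 2 lower (33.3% beside 43.5%). Between D70-ROs and D150-ROs 5 were higher and 1 lower (28.6% beside 33.3%), or 7 and 1 with library totals. Between hiPSCs and D150-ROs 7 were higher and 4 lower (52.4% beside 58.8%), or 8 and 3 with library totals. PIK3R1 stood out in these too, with 3.04 ± 0.79 FPKM in hiPSCs and 30.3 ± 5.79 in D70-ROs.

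Of 19 feedback and response genes of the MAP kinase pathway, 10 were lower and 2 higher in D70-ROs than in hiPSCs, with a median log2 fold change of −1.14. This is 63.2% of the list, beside 43.5% of all genes called and 21.1% called lower. It is a description, because the list was chosen with earlier results of these data known. ETV4, a transcription factor of this response, went from 78.6 ± 10.2 to 2.97 ± 0.15 FPKM (−4.87, SE 0.17), FOSL1 from 6.55 ± 0.10 to 0.30 ± 0.07 (−4.82, SE 0.29) and DUSP6, a phosphatase of MAP kinases, from 93.6 ± 9.56 to 9.86 ± 1.34 (−3.43, SE 0.14). FOSL1 passed the FPKM limit through the hiPSCs alone. Between D70-ROs and D150-ROs 2 were higher and 2 lower (21.1% beside 33.3%), or 2 and 1 with library totals. Between hiPSCs and D150-ROs 8 were lower and none higher (42.1% beside 58.8%), or 8 and 1 with library totals. In P1 iMGCs 6 were higher and 3 lower than in D150-ROs, with a median of 0.19 and a share of 47.4% beside 44.1%, and with library totals 4 were higher and 5 lower, with a median of −0.46. IER3 went from 4.46 ± 0.41 to 155 ± 3.30 FPKM (5.75, SE 0.07), MYC from 6.77 ± 0.48 to 44.2 ± 1.95 (3.51, SE 0.07) and CCND1, which encodes cyclin D1, from 27.7 ± 2.99 to 90.0 ± 7.37 (2.34, SE 0.07). SPRY1 and SPRY2, inhibitors of receptor signalling, had log2 fold changes of −2.94 and −2.08. SPRY1, at 0.54 ± 0.14 FPKM in P1 iMGCs, passed the FPKM limit through the D150-ROs alone. So did FOS, also counted as lower, at 0.70 ± 0.12 FPKM in P1 iMGCs. In P5 iMGCs 5 were higher and 5 lower (52.6% beside 44.6%), with a median of −0.02, and with library totals 3 were higher and 8 lower, with a median of −0.72. Many other pathways act on these genes, and their link to the ERBB receptors was not tested.

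**Figure D5:**
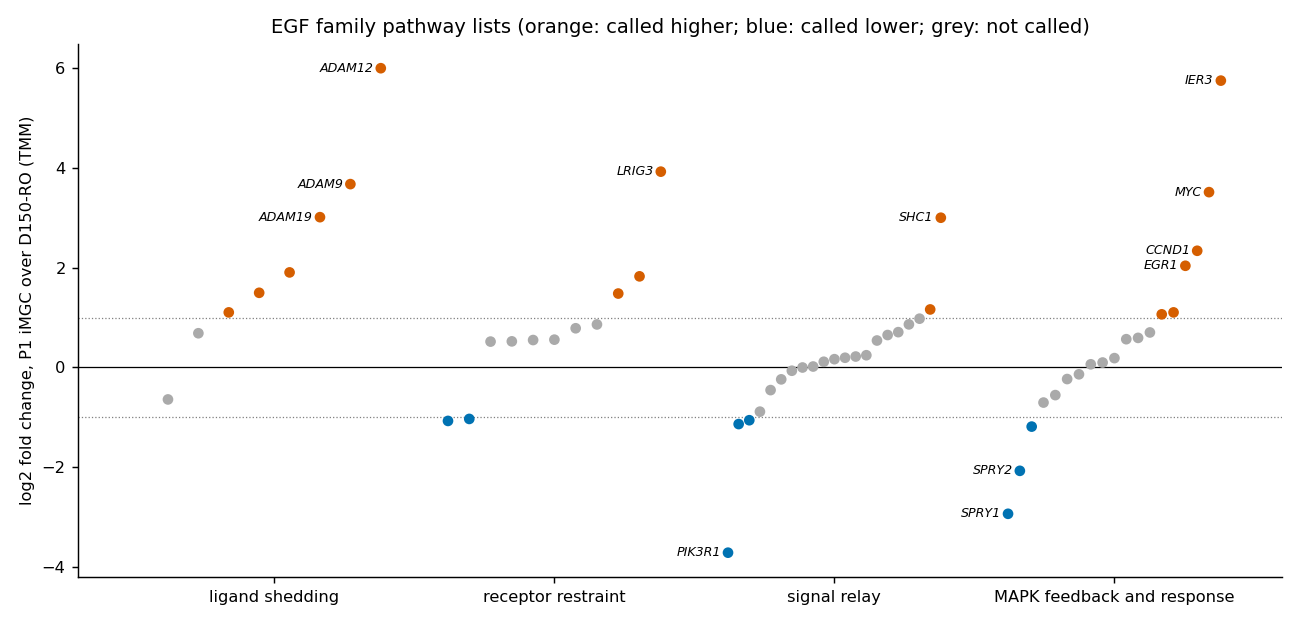
Log2 fold change of each tested gene of 4 pathway lists in P1 iMGCs over D150-ROs (vertical axis, edgeR with TMM factors), ordered by size within a list (horizontal axis), with dotted lines at 2-fold and names for changes beyond 4-fold. Of the shedding list 6 of 8 points are called higher, led by ADAM12 at 6.00, and of the relay list 2 are higher and 3 lower, with PIK3R1 at −3.72.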

How the data were processed

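Poly(A) RNA of 15 libraries was sequenced, and the authors mapped reads with HISAT2, assembled transcripts with StringTie and quantified genes with RSEM. No versions, genome build or annotation are given in the sources used here. The deposited values are expected counts, which are estimated and not normalized, and FPKM, which the authors scaled for length and depth. Of the expected counts, 8.21% to 10.1% a library were not whole and were rounded. All 19684 identifiers are in GENCODE release 29. Of 3 tables, 1 holds 6 columns of 3 iMGC libraries of unstated passage, which were left out. The D150-RO columns beside them have the same FPKM as the other table and counts within 0.5. edgeR 4.0.16 in R 4.3.3 gave the tests (quasi-likelihood test, TMM factors, Benjamini-Hochberg over all genes tested), groups 2 at a time without covariates. The limits were 1 FPKM in 3 libraries, an adjusted p under 0.05 and 2-fold. The tests were tested on simulated data.

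The members and lists were chosen with earlier results of these data known. All members are named. Of each list, up to 5 called genes with the largest changes were named with values, and others by name only where counted. ADAM17 and BACE1, which were not called, were also given with values. For EREG, HBEGF, EGFR, ERBB3 and ERBB4, the 3 genes with the highest correlation across libraries were named. A first plan to print protein domains was not carried out. The alternatives tried were DESeq2 1.42.0, all libraries in 1 fit, upper-quartile scaling, no filter, limma 3.58.1 on log2(FPKM + 1) and log2(FPKM + 0.1), a test against 2-fold, a replicate block, each library left out, receptor levels from TMM-scaled counts, and library totals in place of TMM factors, the last chosen after seeing the data. Counting intervals (95%) cover counting error only.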

Additional observations from a re-analysis of the deposited data

How the results depend on the processing

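The number of members called between D70-ROs and D150-ROs went from 1 to 2 with no filter (BTC added) and with upper-quartile scaling (EGFR added), and lay between 1 and 2 with single libraries left out. Of all genes, 4276 were called there, and 2830 in a test against 2-fold. With no filter the members called were 8 in P1 and 7 in P5 iMGCs against D150-ROs, in place of 4 and 4, because low genes entered the test. ERBB2 in P1 iMGCs over D150-ROs reversed from 0.56 to −0.087 with library totals, −0.40 with limma on log2(FPKM + 1) and −0.42 on log2(FPKM + 0.1), and in P5 iMGCs from 0.66 to −0.042, −0.37 and −0.39. EREG between P1 and P5 iMGCs moved from −5.48 to −1.56 with a pseudocount of 1 and −3.93 with 0.1, which by construction shrink low values, and lay between −5.82 and −5.29 with single libraries left out.

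Receptor levels, as log2 ratios of mean FPKM, moved with counts scaled by TMM factors. EGFR went from 3.24 to 3.72 in D70-ROs over hiPSCs, from −0.76 to −0.96 in D150-ROs over D70-ROs, from 1.83 to 2.48 in P1 iMGCs over D150-ROs and from −0.26 to −0.21 in P5 over P1 iMGCs. ERBB2 went from −0.15 to −0.58 in D150-ROs over D70-ROs, reversed from −0.42 to 0.57 in P1 iMGCs over D150-ROs and went from 0.030 to 0.095 in P5 over P1 iMGCs. The length implied for EGFR stood apart in hiPSCs only, and that for ERBB2 was shorter in D150-ROs than in iMGCs, as given above. Between P1 iMGCs and D150-ROs, library totals in place of TMM factors shifted the median gene by −0.64. The part of length and of scaling in these moves was not tested.

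Whether equal replicate numbers mark paired libraries could not be settled with 3 replicates a group. Deviations of equally numbered replicates correlated between −0.0795 and 0.350, and not every pair passed 0.1. In D70-ROs and hiPSCs the equally numbered pairs were all positive (0.023, 0.350 and 0.137), and other pairs ranged from −0.33 to 0.33. With the number as a replicate block the members called stayed at 4, 1, 5, 4 and 4 in the order D70-ROs over hiPSCs, D150-ROs over D70-ROs, D150-ROs over hiPSCs, P1 and P5 iMGCs over D150-ROs, and EREG between passages was at −5.49. No other value of the members turned its direction under the alternatives run. Over single genes and alternatives, 395 values stayed on their side of the limits, 3 of EGFR between D70-ROs and D150-ROs passed the 2-fold limit and 11 differences between P1 and P5 moved by more than the spread of replicates. At 0 to 10 counts a group, AREG, and EREG outside P1 iMGCs, are below what these depths can compare.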

Other observations

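Genes whose levels ran most like those of a member over the 15 libraries were ranked by Pearson's r of log2(FPKM + 1) among 13915 genes with at least 1 FPKM in at least 3 libraries. The libraries fall into 5 groups, so the r values describe shared group patterns and carry no p. For EREG they were SIM2 (r = 0.973), DHRS9 (0.971) and TLR3 (0.938). SIM2, a transcription factor gene, had mean FPKM of 0.36 in D150-ROs, 6.08 in P1 and 0.66 in P5 iMGCs, and DHRS9, a dehydrogenase gene, had 0.01, 1.56 and 0.25. TLR3, a receptor for double-stranded RNA, had 0.59, 3.31 and 0.69. All 3 were highest in P1 iMGCs, which follows from their choice by likeness to EREG.

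For HBEGF the genes were INSYN2B (0.993), FKBP14 (0.992) and ARF4 (0.991). ARF4 is a small GTPase gene of the secretory route and had mean FPKM of 109 in hiPSCs, 160.6 in D150-ROs, 336 in P1 and 311.5 in P5 iMGCs. For EGFR they were NR2F2 (0.989), FAM214B (0.986) and EDA2R (0.984). NR2F2, a nuclear receptor gene, had mean FPKM of 0.15 in hiPSCs, 21.2 in D70-ROs, 8.89 in D150-ROs, 151 in P1 and 71.0 in P5 iMGCs. This is the order of EGFR, for likeness to which NR2F2 was picked. For ERBB3 they were CDH1 (0.997), HAS3 (0.996) and ZSCAN10 (0.994). CDH1, which encodes E-cadherin, had 120 FPKM in hiPSCs and 0.04 in P1 iMGCs. ERBB4 was below the minimum and was not ranked.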
